A study of Mus musculus with 47 samples.

Results

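H3K4me1 peaks of female mouse liver were compared between floxed controls and mice that lack both Ezh1 and Ezh2, the catalytic subunits of Polycomb repressive complex 2 (PRC2). Control mice carried the Ezh2 f/f allele without Cre. E1/E2-KO mice carried Ezh1-/-, Ezh2 f/f and the albumin-Cre transgene, so Ezh1 was absent from all cells and Ezh2 was deleted in hepatocytes, whereas the endothelial, Kupffer, stellate and immune cells of the liver kept Ezh2. All mice were 7 weeks old. The sample records list 4 control and 3 E1/E2-KO female livers for this mark, and 1 MACS2 peak list was made from the pooled reads of each group. Peaks on the 19 autosomes were taken in mm9 coordinates, which gave a control list of 54181 peaks and an E1/E2-KO list of 50922. A control peak with no E1/E2-KO peak overlapping it by 1 bp is called lost, an E1/E2-KO peak with no overlapping control peak is called gained, and all others are called kept. These are 2 lists of the 12 made from the 47 samples of the study, and the female H3K27ac and H3K27me3 lists of the same genotypes, each from 4 livers, were used to describe the peaks further.

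H3K4me1 is placed on nucleosomes at enhancers and around promoters by MLL3/MLL4-type methyltransferases. It marks enhancers that are primed as well as enhancers in use, and H3K27ac, laid down by p300 and CBP, marks those in use. PRC2 writes H3K27me3 over silenced genes such as developmental regulators, and H3K27ac and H3K27me3 cannot occupy the same lysine. In liver, H3K4me1 surrounds sites bound by hepatocyte factors such as HNF4A, FOXA and C/EBP proteins, and part of it differs between the sexes through growth hormone signalling. With pooled lists there is no replicate error, so no test between the genotypes was possible. Ranges in brackets after a share are Wilson 95% intervals. They hold counting error alone and are too narrow, because neighbouring peaks are not independent. The lists hold no score or read count, the depth is unknown, and fewer cells of a type cannot be told apart from less mark per cell in whole liver.

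The DNA under lost and gained peaks is shown for 8 genes described further below. For each gene it is the central 200 bases of its widest lost or gained peak, on the plus strand of mm9, with CG dinucleotides in capitals, because CG-rich windows were concentrated in H3K27me3 regions. The lost peaks are at Cux2, a female-biased homeobox repressor (chr5:122449249-122450011, intron), Trim24, a female-biased nuclear receptor cofactor (chr6:37876166-37876728, intron), Hnf4a, a master regulator of hepatocytes (chr2:163362008-163362735, intron), and Ptgds, which encodes prostaglandin D2 synthase (chr2:25316965-25317580, 8.29 kb downstream of the gene start and outside the gene). The Ptgds peak lies closer to the start of a neighbouring gene on the minus strand, BC029214 (chr2:25310661-25316614), than to Ptgds. The gained peaks are at Gata3, a T cell and developmental factor (chr2:9816810-9817627, 5.56 kb upstream of the start), Pax5, the B cell lineage factor (chr4:44677008-44677624, intron), Irf8, a macrophage and dendritic cell factor (chr8:123252598-123253314, 7.30 kb upstream), and Auts2, a gene active in developing brain (chr5:132208841-132209846, intron).
Cux2 lost, chr5:122449530-122449729: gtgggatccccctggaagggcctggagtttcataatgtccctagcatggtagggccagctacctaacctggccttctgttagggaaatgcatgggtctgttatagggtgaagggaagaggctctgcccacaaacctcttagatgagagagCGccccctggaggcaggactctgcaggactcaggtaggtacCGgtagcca
Trim24 lost, chr6:37876347-37876546: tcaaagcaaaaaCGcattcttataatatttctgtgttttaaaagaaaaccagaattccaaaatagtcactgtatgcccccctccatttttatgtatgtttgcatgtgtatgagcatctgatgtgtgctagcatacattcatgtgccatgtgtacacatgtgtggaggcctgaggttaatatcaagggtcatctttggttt
Hnf4a lost, chr2:163362272-163362471: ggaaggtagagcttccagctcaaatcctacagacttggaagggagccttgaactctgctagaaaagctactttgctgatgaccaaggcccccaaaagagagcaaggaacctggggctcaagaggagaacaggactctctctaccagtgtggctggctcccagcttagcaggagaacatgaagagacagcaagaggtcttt
Ptgds lost, chr2:25317173-25317372: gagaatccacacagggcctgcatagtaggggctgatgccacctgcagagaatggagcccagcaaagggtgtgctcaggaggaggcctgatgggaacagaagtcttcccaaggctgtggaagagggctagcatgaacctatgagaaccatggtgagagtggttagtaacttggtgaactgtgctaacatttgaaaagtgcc
Gata3 gained, chr2:9817119-9817318: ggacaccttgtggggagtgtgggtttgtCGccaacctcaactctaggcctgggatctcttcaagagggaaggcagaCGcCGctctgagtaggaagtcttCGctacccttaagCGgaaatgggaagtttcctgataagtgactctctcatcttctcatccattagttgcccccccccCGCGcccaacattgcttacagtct
Pax5 gained, chr4:44677216-44677415: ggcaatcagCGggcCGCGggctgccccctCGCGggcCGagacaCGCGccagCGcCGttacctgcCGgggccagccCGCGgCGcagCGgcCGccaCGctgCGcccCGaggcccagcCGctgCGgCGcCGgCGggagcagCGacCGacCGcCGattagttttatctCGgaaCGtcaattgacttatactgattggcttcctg
Irf8 gained, chr8:123252856-123253055: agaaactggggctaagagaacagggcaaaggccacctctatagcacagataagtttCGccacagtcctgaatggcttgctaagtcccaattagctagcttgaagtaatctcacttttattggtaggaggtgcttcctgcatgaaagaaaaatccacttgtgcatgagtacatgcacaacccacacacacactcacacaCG
Auts2 gained, chr5:132209244-132209443: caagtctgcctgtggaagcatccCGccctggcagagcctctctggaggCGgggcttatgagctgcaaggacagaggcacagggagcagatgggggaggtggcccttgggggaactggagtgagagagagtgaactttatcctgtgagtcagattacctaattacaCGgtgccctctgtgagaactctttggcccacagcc
The 4 lost windows held between 0 and 2 CG dinucleotides and the 4 gained windows between 2 and 30, the highest number being that of Pax5 with 72.0% G and C. These windows are examples from chosen genes and do not stand for their classes. Over all peaks, CpG-rich windows, as defined below, made up 4.80% of lost and 4.97% of gained peaks. The Gata3, Pax5 and Irf8 peaks lay in H3K27me3 regions of both genotypes, the Hnf4a and Auts2 peaks only in a region of the E1/E2-KO list, and the Cux2, Trim24 and Ptgds peaks in neither. The Cux2, Trim24 and Ptgds peaks overlapped H3K27ac in both genotypes and the other 5 in neither.

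More H3K4me1 peaks were lost than gained. Of the control peaks 19994 (36.9%, interval 36.5 to 37.3) were lost, and of the E1/E2-KO peaks 16154 (31.7%, 31.3 to 32.1) were gained, so gained peaks made up 44.7% of the changed ones. By bases, 49.0% of the 27.6 Mb under control peaks were outside E1/E2-KO peaks, and 40.9% of the 23.8 Mb under E1/E2-KO peaks were outside control peaks. In male liver, shown beside and not compared by test, 31.4% of 68838 control peaks were lost and 29.3% of 67161 E1/E2-KO peaks were gained. The sample records list 3 livers for the E1/E2-KO female group and 4 for each other H3K4me1 group, and the part of liver number in the list lengths was not tested. A lost or gained peak is one called in a single list, and no change in signal was measured. The control list was longer by 3259 peaks, a difference that by construction is tied to the excess of 3840 lost over gained peaks. With equal numbers of the widest peaks, 50922 from each list, 17852 control peaks were lost and 17122 E1/E2-KO peaks gained. The excess of lost peaks was thus much smaller between lists of equal length. The lost share lay between 34.8% (chromosome 17) and 38.3% (chromosome 1) on single autosomes, and the gained share between 28.6% (chromosome 17) and 33.8% (chromosome 3).

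Kept peaks were narrower in E1/E2-KO. Among 30147 pairs in which 1 control peak matched 1 E1/E2-KO peak, 59.1% were wider in control, with medians of 521 and 463 bp and a median difference of -42 bp. Lost and gained peaks were the narrow ones of their lists, with median widths of 330 and 309 bp against 525 bp for kept control peaks and 459 bp for kept E1/E2-KO peaks. Each list was divided by width into 5 classes of about equal size. In the narrowest class of the control list (221 to 286 bp) 63.1% of peaks were lost, and in the widest (701 to 2284 bp) 9.02%. The gained share of the E1/E2-KO list was likewise lower in each wider class, from 54.0% to 7.67%. Of the 3262 control peaks of 1 kb or wider, 143 were lost (4.38%), and of the 2043 such E1/E2-KO peaks 43 were gained. Male lists gave the same order of classes.

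**Figure D1:**
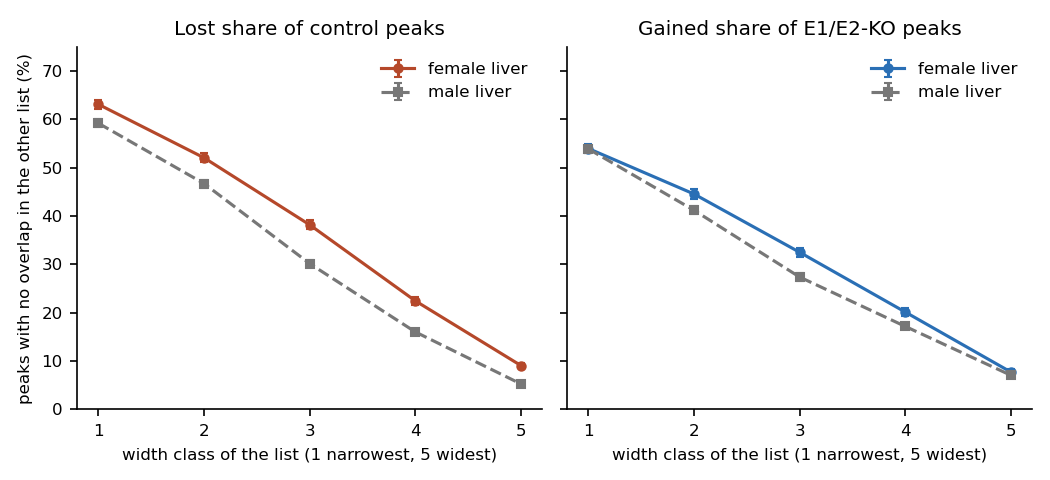
Share of peaks with no overlapping peak in the other list (%) by width class (1 narrowest, 5 widest), for lost peaks (left) and gained peaks (right), in female liver (solid line) and male liver (dashed line). Bars are Wilson 95% intervals. In female liver the lost share runs from 63.1% to 9.02% and the gained share from 54.0% to 7.67%.

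Lost and gained peaks were less often at promoters than kept ones. Within 1 kb of a protein-coding transcription start lay 19.7% of kept control peaks, 15.7% of lost peaks (15.2 to 16.2) and 12.3% of gained peaks (11.8 to 12.8). Introns held 40.6% of kept control, 47.5% of lost and 46.0% of gained peaks, and exons about the same share of each. Intergenic positions held 35.6%, 32.7% and 37.6%. Read the other way, 40.6% of intronic control peaks were lost and 31.8% of promoter peaks, while 34.4% of intronic E1/E2-KO peaks were gained and 22.6% of promoter peaks. Gained peaks were farther from a transcription start (median 17.7 kb) than lost (13.2 kb) and kept control peaks (14.0 kb).

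Many changed peaks had a near neighbour in the other list, and others were isolated from it. Of lost peaks, 28.3% lay within 1 kb of an E1/E2-KO peak and 30.6% lay over 10 kb from any. Of gained peaks, 26.4% lay within 1 kb of a control peak and 36.5% over 10 kb, with 1232 over 50 kb against 791 lost peaks. Changed peaks also lay beside each other. The nearest control peak was itself lost for 41.6% of lost peaks (40.9 to 42.3) and for 36.0% of kept peaks (35.5 to 36.5), and the nearest E1/E2-KO peak was gained for 35.4% of gained peaks and 28.7% of kept ones. In uninterrupted runs with gaps of at most 20 kb, 3 or more lost peaks followed each other at 1099 places and 5 or more at 125, against 494 and 24 for gained peaks.

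The longest run of lost peaks, with 10 peaks over 47.9 kb (chr2:25287018-25334931), overlapped Abca2, a lipid transporter gene, and reached Ptgds. The 10 control peaks there faced 1 E1/E2-KO peak, and H3K27ac peaks numbered 7 in control and 5 in E1/E2-KO. A run of 9 lay in Stim1, the calcium sensor of the endoplasmic reticulum (chr7:109420838-109449791), with no H3K27ac peak in either genotype. Another run of 9 lay at Lrig1, a negative regulator of growth factor receptors. Runs of 8 lay, among other places, in Arid1b, a subunit of the SWI/SNF remodelling complex, and at Prkaa2, a catalytic subunit of AMP-activated kinase. Neither direction was free of such runs. Gained runs of 7 lay at Tmcc1 and of 6 near Gp1bb, at Sall1 and in Map2k5, a kinase of the ERK5 pathway. Gained runs of 5 lay, among other places, at Col11a1, a fibrillar collagen gene. The gained run at Col11a1 (chr3:113733260-113740010) spanned 6.75 kb with no female control peak and no female H3K27ac peak of either genotype. The male H3K4me1 lists held 3 control and 2 E1/E2-KO peaks there.

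Lost peaks were less often acetylated than kept peaks, and gained peaks much less often. In control liver 52.8% of kept peaks and 36.5% of lost peaks (35.8 to 37.2) overlapped an H3K27ac peak. In E1/E2-KO liver 49.6% of kept peaks and 20.5% of gained peaks (19.8 to 21.1) did so. No H3K27ac in either genotype was found at 37.5% of kept control peaks, 56.6% of lost peaks and 72.7% of gained peaks. Where H3K4me1 was lost, H3K27ac was in most cases not lost with it, since 25.6% of lost peaks had H3K27ac in both genotypes, 10.9% in control only and 6.88% in E1/E2-KO only. For gained peaks the shares were 13.7% in both, 6.88% in control only and 6.79% in E1/E2-KO only. A control peak that lay on H3K27ac of both genotypes was lost in 26.2% of cases, one on H3K27ac of control only in 37.6%, and one with no H3K27ac in 46.9%.

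Narrow peaks have less chance to touch another peak, so the classes were also compared within bands of width. Below 300 bp, H3K27ac overlapped 35.5% of kept and 28.6% of lost control peaks, and at 500 bp or wider 61.5% and 50.8%. The gap between kept and lost peaks was thus smaller in each band than over all peaks. Gained peaks overlapped E1/E2-KO H3K27ac in 18.3% of cases below 300 bp, where kept peaks did in 40.8%, and in 24.7% against 56.3% at 500 bp or wider. The low acetylation of gained peaks was therefore present in every band.

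**Figure D2:**
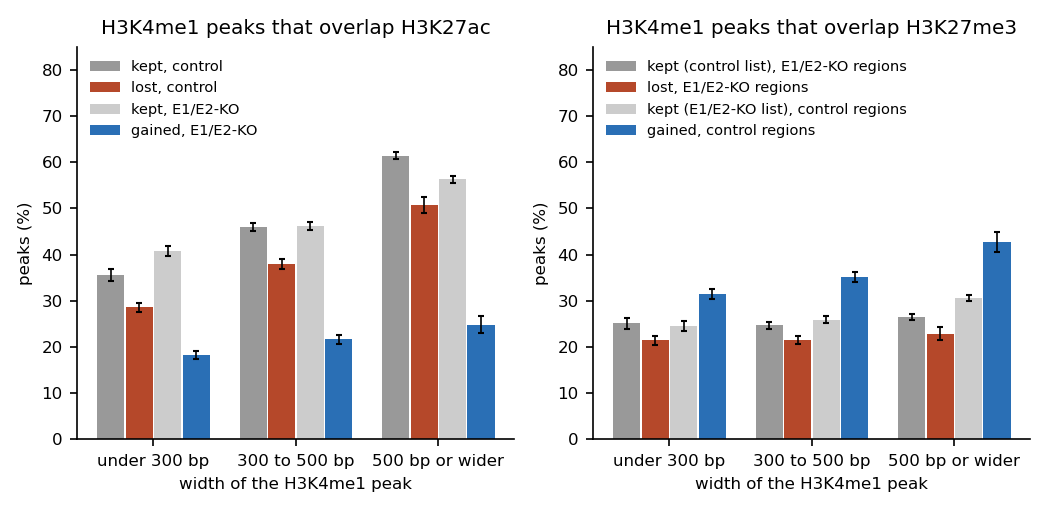
Share of H3K4me1 peaks (%) that overlap an H3K27ac peak (left) or an H3K27me3 region (right), in 3 bands of peak width, for kept, lost and gained peaks, with the genotype of the second mark named in the key. Error bars are Wilson 95% intervals. Gained peaks have the lowest H3K27ac and the highest H3K27me3 bars in each band, for example 24.7% and 42.8% at 500 bp or wider.

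H3K27me3 was more frequent at gained peaks than at kept ones and less frequent at lost peaks. H3K27me3 regions covered 25.5% of autosomal bases in control and 25.6% in E1/E2-KO female liver. Control regions held 27.4% of kept control peaks, 21.2% of lost peaks (20.6 to 21.7) and 34.4% of gained peaks (33.7 to 35.1). E1/E2-KO regions held 25.6% of kept control peaks, 21.6% of lost peaks and 30.7% of gained peaks. The gained peaks inside H3K27me3 were for the most part in regions called in both genotypes (24.6% of all gained peaks, against 18.9% of kept E1/E2-KO peaks), with 9.79% in regions of control only and 6.10% in regions of E1/E2-KO only. In each band of width the gained peaks had the highest share in control regions, from 31.4% below 300 bp to 42.8% at 500 bp or wider, against 24.5% and 30.6% of kept E1/E2-KO peaks. A peak with no H3K27ac in either genotype and H3K27me3 in both was found in 21.0% of gained, 8.51% of lost and 9.65% of kept E1/E2-KO peaks. Gained peaks with H3K27ac in E1/E2-KO only and H3K27me3 in control only were few, at 0.904%, against 1.35% of kept E1/E2-KO peaks. Control peaks in regions called only in E1/E2-KO were lost in 39.8% of cases, against 30.2% in regions of both genotypes and 38.8% outside regions.

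Lost and gained peaks had nearly the same base composition. In 300 bp windows around the peak centres the median GC content was 48.0% for kept control, 47.3% for lost and 47.3% for gained peaks, against 41.7% over 199478 autosomal windows of that length. Windows with at least 50% GC and a CpG observed to expected ratio of at least 0.6 made up 7.16% of kept control, 4.80% of lost and 4.97% of gained peaks and 0.858% of autosomal windows. They were concentrated in H3K27me3, where 17.7% of gained peaks in regions of both genotypes were CpG-rich in this sense against 0.385% of gained peaks outside them, and for lost peaks the shares were 23.2% and 0.963%. The Pax5 window printed above, with its 30 CG dinucleotides, is an example.

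The same windows were searched on both strands for the letters of binding motifs. The forkhead letters TGTTTAC were in 5.42% of kept control, 5.32% of lost and 5.83% of gained windows and in 4.47% of autosomal windows. The HNF4A letters CAAAGTCCA were in 1.11%, 0.930% and 1.08%, and in 0.370% of autosomal windows. The C/EBP letters TTGCNNAA were in 14.0%, 13.1% and 13.9%, and in 13.6% of autosomal windows. The STAT5 letters TTCNNNGAA were in 9.18%, 9.34% and 9.12%, fewer than the 10.96% of autosomal windows. The AP-1 letters TGANTCA were in 8.52%, 9.38% and 8.95%, and in 8.84% of autosomal windows, and the GATA letters AGATAAG in 4.29%, 4.01% and 4.79%, and in 4.39% of autosomal windows. The ETS letters CCGGAAG were in 1.90%, 1.73% and 1.96%, and in 0.834% of autosomal windows, and the PU.1 letters GAGGAAGT in 2.20%, 2.26% and 2.19%, and in 1.80% of autosomal windows. Both longer motifs, given by name only, were rare. The direct repeat bound by nuclear receptors was in 0.143% of kept control, 0.125% of lost and 0.155% of gained windows and in 0.0612% of autosomal windows, and the HNF1 palindrome in 0.0585%, 0.0850% and 0.0619% and in 0.0115% of autosomal windows. The classes differed by less than 1 percentage point for each of these 10 motifs, a limit that the rarest motifs could hardly exceed. Between lost and gained windows only the GATA intervals did not overlap (3.75 to 4.29 for lost, 4.47 to 5.13 for gained). All classes held the HNF4A letters more often than autosomal windows. A match is only a match of letters, and factor binding was not measured.

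Most lost peaks were sites that male liver also marked. In male liver 40.9% of the female lost peaks had an overlapping peak in both genotypes, 20.6% in control only, 11.9% in E1/E2-KO only and 26.6% in neither. Gained peaks were found in both male lists in 29.9% of cases, in E1/E2-KO only in 22.0%, in control only in 14.0% and in neither in 34.2%. Kept control peaks were found in both male lists in 81.5% of cases. The female lost peaks that overlapped male lost peaks were 19.1% of the female and 17.7% of the male lost peaks, while 11.3% of female lost peaks overlapped male gained peaks. For gained peaks the shares were 20.4% of the female and 16.6% of the male gained peaks, and 12.7% of female gained peaks overlapped male lost peaks.

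At genes, peaks were counted within the span of a protein-coding gene and 10 kb on each side. Of 21418 autosomal protein-coding genes 10115 (47.2%) had at least 1 lost peak and 8699 (40.6%) at least 1 gained peak, and 5791 had both. More lost than gained peaks were found at 6666 genes (31.1%) and more gained than lost at 4132 (19.3%). At least 5 lost peaks were found at 645 genes (3.01%), with a median span of 146 kb, and at least 5 gained peaks at 336 genes (1.57%), with a median span of 232 kb, against 15.5 kb over all genes. The counts thus followed span. The highest lost counts were at Gm20388 (103 lost, 66 gained), Fgfr2 (35 lost, 30 gained) and Arfip1 (23 lost, 13 gained), whose annotated models span 4435, 3009 and 1391 kb. Overlapping genes share peaks.

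After Gm20388, the largest excess of lost over gained peaks was at Macf1 (chr4:123026876-123361603), which encodes a linker of microtubules and actin. Over a span of 335 kb it had 26 control and 13 E1/E2-KO peaks, of which 15 were lost and 1 gained. Pcx (chr19:4510472-4621752), pyruvate carboxylase, the enzyme that feeds pyruvate into gluconeogenesis, had 20 control and 8 E1/E2-KO peaks, with 14 lost and 2 gained, with 25 and 22 H3K27ac peaks and no H3K27me3 in either genotype. Magi1, a scaffold of cell junctions, had 21 lost and 9 gained peaks over 608 kb. Cux2, with 12 lost and 1 gained, came next in excess, before Abtb2, Stim1, Arid1b and Lpp with 11 to 18 lost peaks. At Stim1 19 control and 9 E1/E2-KO peaks were called. The male lists held 24 control and 26 E1/E2-KO peaks at Macf1, with 5 lost and 5 gained.

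Gains exceeded losses most at Auts2 (chr5:131913205-133019214), with 20 control and 31 E1/E2-KO peaks, 4 lost and 17 gained, over a span of 1106 kb. H3K27me3 covered 46.4% of its span in control and 24.6% in E1/E2-KO, and it had 3 H3K27ac peaks in each. The male lists of Auts2 held 16 and 26 peaks, with 14 gained. Syne1, which encodes a nuclear envelope spectrin repeat protein, kept all of its 9 control peaks and gained 9. Rfx4, a brain and testis transcription factor, kept all 7 and gained 7, and H3K27me3 covered 59.8% of it in control and 77.1% in E1/E2-KO. Sdk1, a synaptic adhesion protein gene, gained 12 and lost 4. Zbtb20, a repressor of Afp in adult liver, lost 14 and gained 21 peaks, whereas in the male lists it lost 26 and gained 12. Fto, an RNA demethylase gene, lost 6 and gained 13. At Sdk1 the H3K27ac peaks numbered 7 in control and 19 in E1/E2-KO.

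**Figure D3:**
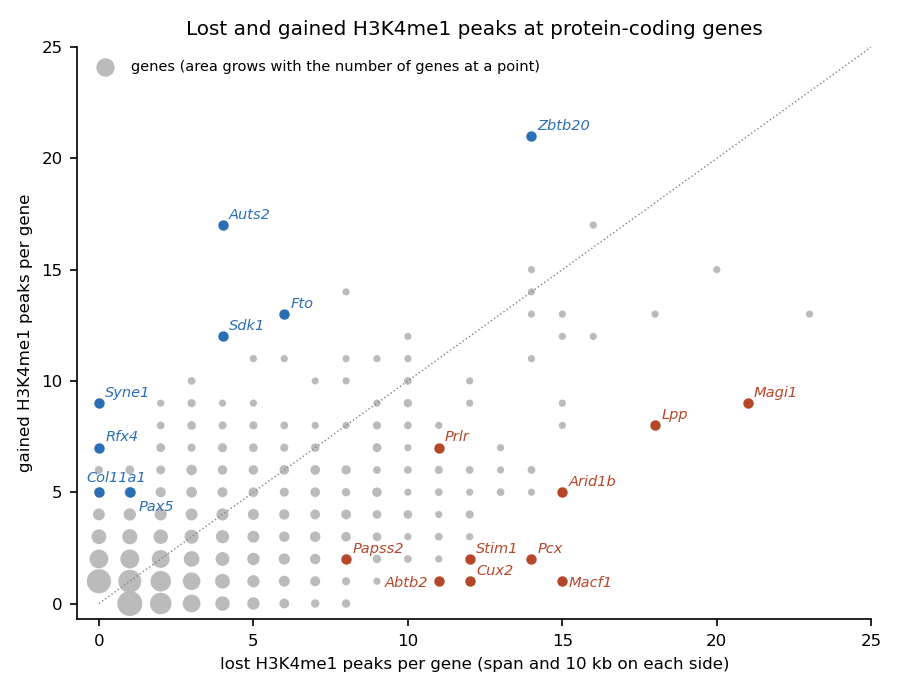
Number of lost (horizontal axis) and gained (vertical axis) H3K4me1 peaks per protein-coding gene in female liver, counted within the span and 10 kb on each side. Grey points are all gene counts up to 25, their size growing with the number of genes, and named genes are red where lost peaks exceed gained ones and blue otherwise. Macf1 lies at 15 lost and 1 gained, Auts2 at 4 lost and 17 gained, and the dotted line marks equal numbers.

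Of 8793 genes with 3 or more control peaks, 261 (2.97%) kept none. The highest number was 8 at Papss2 (chr19:32694495-32741677), the liver enzyme that makes the sulfate donor PAPS, where 2 peaks were gained and H3K27ac peaks numbered 15 in control and 12 in E1/E2-KO. Egfr, the epidermal growth factor receptor, lost all 7 of its control peaks and gained 2, with 15 H3K27ac peaks in control and 10 in E1/E2-KO. Ggcx, the vitamin K-dependent carboxylase of clotting factors, lost all 7 and gained 1. Mgat4b, an enzyme of N-glycan branching, lost all 6 with none gained, and Pan3, a subunit of an mRNA deadenylase, Ptgds and Tap1, a peptide transporter of antigen presentation, lost all 6 and gained 1 each. None of Papss2, Ggcx, Pan3 and Tap1 had H3K27me3 over the gene in either genotype. Conversely, of 5797 genes with no control peak 41 (0.707%) gained 3 or more. Col11a1 gained 5. Frem2, an extracellular matrix gene, Ikzf2, the T cell factor Helios, Adamts9, a secreted protease gene, and Zfp536 gained 4. Kit, the stem cell factor receptor gene, Cd79b, a chain of the B cell receptor, Nr2f2, a nuclear receptor of venous endothelium, Hoxc4 and Alox5ap gained 3. H3K27me3 covered 96.8% of Zfp536, a neural zinc finger gene, in control and 97.7% in E1/E2-KO. Of Alox5ap, which encodes the 5-lipoxygenase activating protein of leukocytes, it covered 100% in control and 0% in E1/E2-KO.

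Female-biased liver genes had the highest lost share of the 20 gene lists. Over 34 genes, 63 of 109 control peaks were lost (57.8%, 48.4 to 66.6) and 20 of 70 E1/E2-KO peaks were gained (28.6%), where all protein-coding genes had 37.9% and 31.3%. Over all peaks of the same widths the lost share was 38.4%. Without Cux2, the gene with most lost peaks, it was 56.7% for the list. More lost than gained peaks were found at 16 of the 34 genes and the reverse at 3, against 31.1% and 19.3% of all protein-coding genes. In the male lists 34.6% of the control peaks at these genes were lost. Male-biased liver genes lost 48.1% of 52 control peaks in female liver (35.1 to 61.3), an interval that includes the 37.9% of all genes, and 53.2% of 79 in male liver, where all genes lost 31.9%. The interval of the lost share lay above that of all genes for 4 of the 20 lists, which were the female-biased, the bile acid, lipid and cholesterol, the growth hormone and insulin signalling and the hepatocyte transcription factor genes. Without the gene with most lost peaks, 2 of these intervals included the 37.9% of all genes, at 44.8% without Prlr for the growth hormone list (33.5 to 56.6) and 47.3% without Nr1h4 for the hepatocyte factors (37.3 to 57.4). The share of all peaks of the same widths, 41.2%, also lay within the interval of the full growth hormone list (39.4 to 60.6). The interval of the gained share lay above it for 2, the developmental regulators and the stellate cell and fibrosis genes, and below it for 1, the ribosomal protein genes. Without Col4a2, the gained share of the stellate list was 42.3% (31.5 to 53.8), which includes the 32.5% of all peaks of its widths, and the interval of the ribosomal list (17.6 to 30.3) included the 30.3% of its widths.

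At Cux2 (chr5:122308396-122500111), 19 control and 8 E1/E2-KO peaks were called, with 12 lost and 1 gained, while H3K27ac peaks numbered 15 and 18. H3K27me3 covered 30.5% of the gene in control and 71.2% in E1/E2-KO. In male liver Cux2 had 12 and 16 peaks, with 2 lost and 5 gained. Trim24 had 7 control and 2 E1/E2-KO peaks, with 5 lost and none gained, and 9 and 5 H3K27ac peaks. Ptgds had 6 and 1, all 6 lost. Its neighbours Clic3 and BC029214 each lost all 5 of their control peaks, and a peak within 10 kb of several genes is counted at each. A1bg, a plasma glycoprotein gene, lost all 3 of its peaks and Sult2a6, a sulfotransferase gene, all 4, with 1 gained at Sult2a6. Cyp2b10, a xenobiotic-induced cytochrome P450, had 4 and 1 peaks with 3 lost, and H3K27me3 covered 37.2% of it in control and none in E1/E2-KO. Several strongly female-biased genes, among them Cyp2a4 and Sult2a1, had no H3K4me1 peak in either list. Both also had no female H3K27ac peak and no male H3K4me1 peak in either genotype. How well reads could be placed at genes of such families was not tested, so a missing peak does not show a missing mark.

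Hepatocyte transcription factor genes had more lost than gained peaks. Of the control peaks at 27 such genes 49.5% were lost (39.9 to 59.2) and 39.5% of the E1/E2-KO peaks were gained (29.6 to 50.4). Both shares were above those of all genes, and the interval of the gained share included that of all genes. Over all peaks of these widths the shares were 39.2% and 33.2%. Hnf4a (chr2:163332544-163398646) had 6 control and 2 E1/E2-KO peaks, 4 lost and none gained, with 11 and 9 H3K27ac peaks and H3K27me3 coverage of 0% in control and 71.0% in E1/E2-KO. Foxa3, a forkhead factor, had 4 and 1 peaks and H3K27me3 coverage of 0% and 100%. Prox1, an early hepatoblast factor, lost all 4 and gained 1, with coverage of 0% and 50.2%. H3K27me3 covered at least 50% of 3 of the 27 genes in control and of 10 in E1/E2-KO, and of 27.9% and 27.1% of all protein-coding genes. Coverage counts bases in called regions, and no change in H3K27me3 signal was measured at these genes. Nr1h3, which encodes the oxysterol receptor LXR alpha, had 2 and 4 peaks, with 1 lost and 3 gained. Among 24 hepatocyte secreted and metabolic genes, 47.6% of 42 control peaks were lost (33.4 to 62.3) and 43.5% of 46 E1/E2-KO peaks gained (30.2 to 57.8). Both intervals include the shares of all genes, 37.9% and 31.3%. Fga, a fibrinogen chain gene, and Tat, tyrosine aminotransferase, had 1 control and 3 E1/E2-KO peaks each, while Ahsg, which encodes fetuin A, had 2 and 0 and Fbp1, a gluconeogenic enzyme gene, 5 and 3. More gained and more lost peaks were each found at 7 of these 24 genes, against 19.3% and 31.1% of all protein-coding genes.

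In bile acid, lipid and cholesterol genes 50.8% of 126 control peaks were lost (42.2 to 59.4) and 37.8% of 98 E1/E2-KO peaks gained, with more lost at 17 of 31 genes and more gained at 8. All protein-coding genes had 37.9% of peaks lost and 31.3% gained, and 31.1% of them had more lost and 19.3% more gained peaks. In the male lists 51.6% of control peaks were lost at these genes and 43.4% at the growth hormone and insulin signalling genes, where all genes had 31.9%. Cidec, a lipid droplet protein gene, had 6 control and 1 E1/E2-KO peaks, Srebf2, the regulator of cholesterol synthesis, 9 and 4, and Acacb, acetyl-CoA carboxylase of mitochondria, 7 and 2, each with 5 lost and none gained. Cyp7a1, the rate-limiting enzyme of bile acid synthesis, had 1 and 3 peaks with 2 gained, and Slc10a1, the bile salt uptake transporter, 0 and 2. The male lists of Slc10a1 ran the other way, with 5 and 0 peaks, all 5 lost. In 18 growth hormone and insulin signalling genes 41 of 82 control peaks were lost and 39.1% of 69 E1/E2-KO peaks gained. Prlr, the prolactin receptor gene, had 15 and 11 peaks with 11 lost and 7 gained and kept 4. Irs2, an insulin receptor substrate gene, had 5 and 2 peaks with 3 lost, and H3K27me3 coverage of 0% and 100%. Igf1 had 7 and 5 with 3 lost, whereas Socs2, an inhibitor of growth hormone signalling, had 4 and 6 with 3 gained and Ghr, the growth hormone receptor gene, 6 and 8 with 4 gained.

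**Figure D4:**
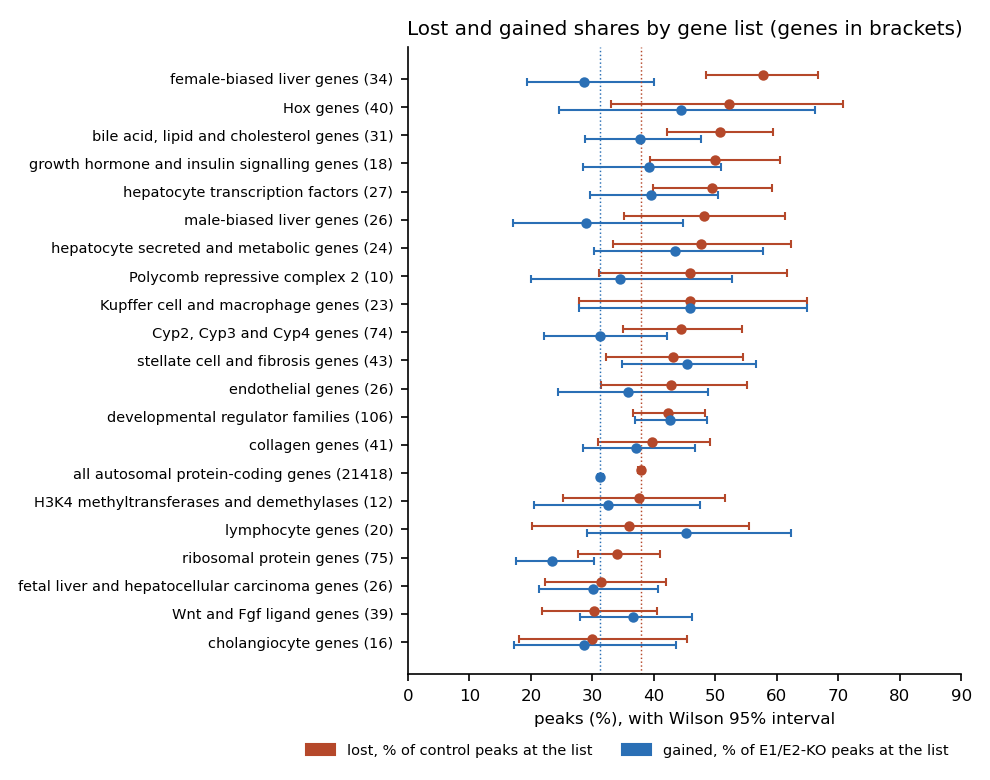
Lost share of control peaks (red) and gained share of E1/E2-KO peaks (blue), in percent with Wilson 95% intervals, for 20 gene lists and all autosomal protein-coding genes, with the number of genes in brackets and dotted lines at the shares of all genes. Female-biased liver genes stand at the top with 57.8% lost and 28.6% gained, and ribosomal protein genes have the lowest gained share, 23.4%.

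PRC2 genes and H3K4 enzymes were covered as well. Ezh1 had 1 control and 2 E1/E2-KO peaks, with 1 gained. Ezh2 had 4 control and 1 E1/E2-KO peaks, with 3 lost, and Jarid2, a PRC2 cofactor, 10 and 7 with 6 lost and 3 gained. The peak lists do not measure the Ezh1 or Ezh2 deletion itself. Over the 10 PRC2 genes 45.9% of control peaks were lost (31.0 to 61.6) and 34.5% of E1/E2-KO peaks gained, and over 12 genes of H3K4 methyltransferases and demethylases 37.5% (25.2 to 51.6) and 32.6%, where all genes had 37.9% and 31.3%. Kdm5b, an H3K4 demethylase gene, had 5 and 1 peaks with 4 lost. Setd7, an H3K4 monomethyltransferase gene, had 3 and 5 with 3 gained, and H3K27me3 covered 79.8% of it in control against 0.878% in E1/E2-KO.

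Developmental regulators had a high gained share. In 106 genes of the Pax, Sox, Gata, Tbx, Lhx and related families 42.3% of 267 control peaks were lost (36.5 to 48.3, which includes the 37.9% of all genes) and 42.6% of 272 E1/E2-KO peaks were gained (36.9 to 48.6), against 31.3% gained for all genes and 32.2% for all peaks of these widths. H3K27me3 covered at least 50% of 97 of these genes in control and of 97 in E1/E2-KO, against 27.9% and 27.1% of all protein-coding genes. Gata3 (chr2:9778705-9811661) had 1 control and 5 E1/E2-KO peaks, with 4 gained, and 0 and 3 H3K27ac peaks, with H3K27me3 over 100% of the gene in both. Pax5 had 3 and 7 with 5 gained under the same full coverage. Otx1, a brain patterning factor, had 3 and 0. Hoxc4 had 0 and 3, while Hoxa3 had 6 and 2 and Hoxd8 4 and 1, all 3 with full coverage in both genotypes. Over 40 Hox gene entries, of which 2 are Hoxa3, 52.2% of 23 control peaks were lost (33.0 to 70.8) and 44.4% of 18 E1/E2-KO peaks gained. Of 39 Wnt and Fgf ligand genes 14 had more gained and 6 more lost peaks, where 19.3% and 31.1% of all genes did. Of their 104 E1/E2-KO peaks 36.5% were gained (27.9 to 46.1) and of their 89 control peaks 30.3% were lost (21.8 to 40.5), and both intervals include the shares of all genes. In 41 collagen genes the shares were 37.1% of 105 gained and 39.6% of 106 lost.

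Among collagens Col11a1 had 0 and 5 and Col8a2 4 and 8, whereas Col18a1, the endostatin precursor, had 15 and 8 with 8 lost. Genes of fetal liver and hepatocellular carcinoma were near the shares of all genes, with 31.3% of 83 control peaks lost and 30.1% of 83 E1/E2-KO peaks gained. Igf2bp1, an RNA-binding protein gene of fetal tissues, had 2 and 4 peaks and its relative Igf2bp2 7 and 5. More lost peaks were found at 8 of the 26 gene entries and more gained at 5, against 31.1% and 19.3% of all genes. Sox4, with more lost peaks, stands under 2 of these entries with the same peaks. The 74 Cyp2, Cyp3 and Cyp4 genes lost 44.4% of 99 control peaks (35.0 to 54.3) and gained 25 of 80 E1/E2-KO peaks (31.25%, 22.2 to 42.1). Both intervals include the shares of all genes, 37.9% lost and 31.3% gained. Cyp2j5 had 6 and 2 peaks and Cyp2w1 1 and 3. Ribosomal protein genes, taken as housekeeping genes, lost 34.0% of 194 control peaks and gained 23.4% of 167 E1/E2-KO peaks.

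**Figure D5:**
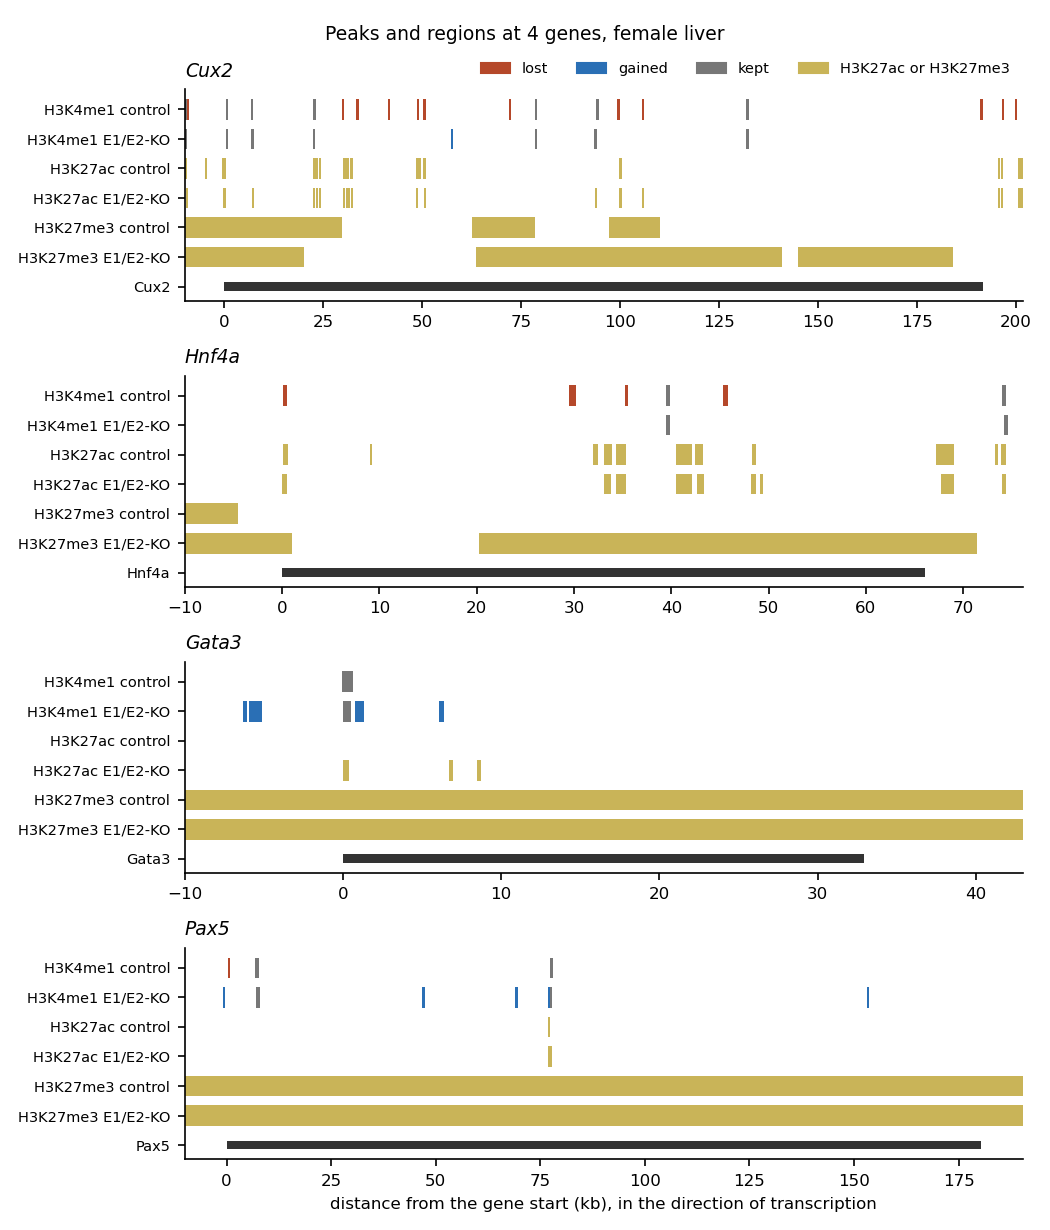
Map of H3K4me1 peaks (red lost, blue gained, grey kept), H3K27ac peaks and H3K27me3 regions (yellow) of both genotypes at Cux2, Hnf4a, Gata3 and Pax5, by distance from the gene start in kb. Peaks narrower than the line are drawn wider so that they can be seen. Of the 12 lost peaks of Cux2, 9 lie in the gene and 3 within 10 kb outside it, the 4 of Hnf4a lie in the gene, and the gained peaks of Gata3 and Pax5 lie under H3K27me3 that spans the whole map in both genotypes.

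Markers of other liver cells were read from the same lists. A control peak was found at 20 of 26 endothelial, 11 of 23 Kupffer cell and macrophage, 28 of 43 stellate cell and fibrosis, 12 of 20 lymphocyte and 10 of 16 cholangiocyte genes, and an E1/E2-KO peak at 19, 12, 33, 12 and 14. Over all protein-coding genes 72.9% had a control peak and 72.8% an E1/E2-KO peak. Of the 27 hepatocyte transcription factor genes 27 had a control and 25 an E1/E2-KO peak, and of the 24 hepatocyte secreted and metabolic genes 20 and 17. Stellate cell and fibrosis genes had a gained share of 45.5% of 77 E1/E2-KO peaks (34.8 to 56.5) and a lost share of 43.1% of 72 control peaks, with more gained at 12 genes and more lost at 9. Col4a2, a basement membrane collagen gene, had 3 and 6 peaks and Reln 4 and 6. Acta2, smooth muscle actin, had 3 and 1 peaks with 3 lost. Pecam1, the endothelial adhesion molecule, had 7 and 2 peaks with 6 lost, and H3K27me3 coverage of 87.6% in control and 0% in E1/E2-KO. Flt4, a receptor of lymphatic endothelium, had 1 and 3 peaks with 3 gained, and 10 of the 26 endothelial genes had more lost and 7 more gained peaks, where 31.1% and 19.3% of all genes did. Irf8 had 1 and 4 peaks with 3 gained, and coverage of 66.6% and 0%, while Cx3cr1, the fractalkine receptor gene, had 2 and 0. Of the 23 Kupffer cell and macrophage genes 5 had more gained and 5 more lost peaks. Lost and gained shares were 42.9% and 35.7% for endothelial, 45.8% and 45.8% for Kupffer cell and macrophage, 36.0% and 45.2% for lymphocyte, and 12 of 40 and 12 of 42 peaks for cholangiocyte genes, over 24 to 63 control peaks a list. The intervals of these 4 lists included the 37.9% and 31.3% of all genes. How far cell composition takes part in these counts was not tested.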

How the data were processed

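Livers of 7 week old floxed control and E1/E2-KO mice were analysed by ChIP-seq by the authors, each H3K4me1 sample taking 15 µg of chromatin with 1.2 µg of antibody. The authors pooled the 50 nt paired-end reads of a group, mapped them to mm9 with Bowtie2 (version 2.3.2), and called H3K4me1 and H3K27ac peaks with MACS2 (version 2.1.1) and H3K27me3 regions with SICER (version 1.1, 400 bp windows, 2400 bp gaps). The deposited lists give chromosome, start, end and name, in base pairs, and hold no score or count, so the depth is unknown. The sample records used here list 3 E1/E2-KO female H3K4me1 livers, whereas the study's methods give 4 for every group, so the number pooled into that list is uncertain. Starts were read as counted from 0, and 1 base was added to SICER ends. Genes, exons and transcription starts came from GENCODE M1 on NCBIM37 (mm9), the genome from which sequences were read. Some symbols, such as Sox4 and Hoxa3, have 2 gene identifiers in GENCODE M1, and each identifier was counted as a gene.

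Lists were compared by 1 bp overlap with Python (version 3.11.15) and numpy (version 2.4.6), after a test on simulated data. GC content and motifs were read in 300 bp windows, with 1 autosomal window every 12 kb as reference. H3K27me3 coverage is the part of a gene's bases, in percent, that lies in regions. The shares for peaks of the same widths come from 20 width classes of each list. The named genes are the 10 with most lost and gained peaks and with the largest excess in each direction, up to 3 of each gene list in each direction with an excess of at least 2, genes at the 5 longest runs, genes with 3 or more control peaks that kept none and genes with no control peak and 3 or more gained. Ezh1, Cyp2a4, Sult2a1 and Nr1h4 were named outside this rule, after their values were seen. Some genes that met the rule are not reported here. Members and gene lists were chosen with earlier results of these data known. Alternatives were other overlap rules, merged peaks, the widest peaks, all chromosomes and other gene flanks.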

Additional observations from a re-analysis of the deposited data

How the results depend on the processing

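The order of the classes held under each alternative run, as lost peaks had less H3K27ac and less E1/E2-KO H3K27me3 than kept peaks, and gained peaks had less H3K27ac and more control H3K27me3. In the widest 50% of each list, 5232 of 27090 control peaks were lost and 4325 of 25461 E1/E2-KO peaks were gained. The share of lost peaks with control H3K27ac (36.5%) was 40.1% when sharing needed 50% of the peak, 32.6% when a peak within 1 kb counted as shared, 33.2% with peaks within 1 kb merged, 48.5% for the widest 50%, 37.5% for equal numbers of the widest peaks and 55.6% with H3K27ac within 1 kb. The share of gained peaks with E1/E2-KO H3K27ac (20.5%) was 24.1%, 17.0%, 18.8%, 24.0%, 21.3% and 37.4% under the same alternatives. The share of lost peaks in E1/E2-KO H3K27me3 (21.6%) was 22.3% with 50% overlap, 22.8% for the widest 50%, 23.1% with all chromosomes and 20.9% with the whole peak inside. The share of gained peaks in control H3K27me3 (34.4%) was 33.5% with 50% overlap, 37.4% within 1 kb, 35.7% merged, 39.9% for the widest 50% and 35.5% with all chromosomes. Genes with 5 or more lost peaks numbered 2878 with a 50 kb flank, 1059 with 50% overlap and 364 with sharing within 1 kb, and with 5 or more gained peaks 1177, 586 and 164. For shares the cause was not tested. A wider flank assigns more peaks to each gene by construction.

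No paired analysis was possible because each list pools the livers of a group, and for the same reason no liver was left out. A stricter peak threshold was not run, since the lists hold no score. The width bands were added after seeing the data. The lists record only that a peak passed the caller's threshold, and a small difference in signal can move a peak across it.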

Other observations

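Outside the autosomes, chromosome X had 617 control and 495 E1/E2-KO H3K4me1 peaks in female liver. Of these, 407 control peaks were lost (66.0%, 62.1 to 69.6) and 291 E1/E2-KO peaks gained (58.8%, 54.4 to 63.0), both above the range of single autosomes.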
